A study of Homo sapiens with 6 samples.

Results

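The 9 genes described here encode subunits of the Elongator complex (ELP2, ELP3, ELP4, ELP5 and ELP6), its regulator KTI12, and the wobble uridine thiolation factors URM1, CTU1 and CTU2. They were taken by symbol from the deposited table, and all 9 were found among 19669 named genes. RNA-seq and Ribo-seq, the sequencing of mRNA fragments protected by ribosomes, had been performed on 786-O, a clear cell renal carcinoma line without functional VHL. There were 3 labels with 1 library per label and assay, so 6 libraries in all. By the series title, MT carries PHYHD1 (a gene of the iron- and 2-oxoglutarate-dependent dioxygenase family) without the segment 107 to 130, WT carries full-length PHYHD1, and EV carries empty vector. The design text differs, giving MT as PHYHD1 overexpression and WT as untreated cells. The sources used here do not give whether each line was a clone, which promoter drove PHYHD1, or whether the 3 dishes named per condition were pooled. Ribo-seq cells received cycloheximide at 100 µg/ml.

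PHYHD1 mRNA stood at 109.5 FPKM in MT, 118 FPKM in WT and 0.092 FPKM in EV, and its Ribo-seq value at 905 TPM in MT, 222 TPM in WT and 0 in EV. Abundant PHYHD1 in the library labelled WT goes against the design text, and libraries are called by label. All 8 renal carcinoma line markers, among them PAX8, PAX2 and vimentin, were at 1 unit or more in all 6 libraries. Of 6 markers of blood, endothelium and fibroblasts 4 were listed at 0 in all 6 libraries. The highest value among the others was 1.54 FPKM, for COL1A1 in WT. With 1 library per label and assay there is no replicate error, no test and no p-value, and each difference is between libraries rather than conditions. In bulk libraries, a larger share of cells with an mRNA and more of it in every cell cannot be told apart.

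Uridine at the wobble position of several cytosolic transfer RNAs carries a side chain and, in those for lysine, glutamine and glutamate, a sulfur atom. Elongator starts the side chain. Its catalytic subunit ELP3 works with ELP2, a structural subunit, and ELP4, ELP5 and ELP6 form an accessory ring that binds tRNA in yeast. A methyltransferase completes the side chain. Sulfur comes from a cysteine desulfurase by way of URM1, a ubiquitin-like protein used as a sulfur carrier, and the CTU1-CTU2 complex puts it on the uridine. The modified base helps ribosomes read codons that end in A, especially those for the 3 amino acids named, and in yeast the loss of the enzymes slows ribosomes there.

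The mRNA of the 9 genes differed little between the libraries and, apart from URM1, was low to moderate. URM1 mRNA stood at percentile 79.7 in MT, 81.2 in WT and 80.8 in EV among genes at 1 FPKM or more. Levels are per length, as FPKM in RNA-seq and TPM in Ribo-seq, and are compared between genes on that basis. The highest library exceeded the lowest by 1.09 times for URM1, the steadiest member, and by 1.35 times for CTU1, with a median over members of 1.20. The corresponding median over 10635 genes at 1 unit or more in all 3 RNA-seq libraries was 1.16. In Ribo-seq the ratio of highest to lowest ran between 1.05 for URM1 and 2.36 for KTI12, with a median of 1.26 over members and 1.28 over 9995 genes. Ribo-seq values of 3 members (KTI12, CTU2 and ELP4) spanned 1.5 times or more, and 0 members did in mRNA. The share of all genes past 1.5 times was not counted. Over all genes, too, the median span was wider in Ribo-seq (1.28) than in mRNA (1.16), so this contrast is not particular to the members.

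**Figure D1:**
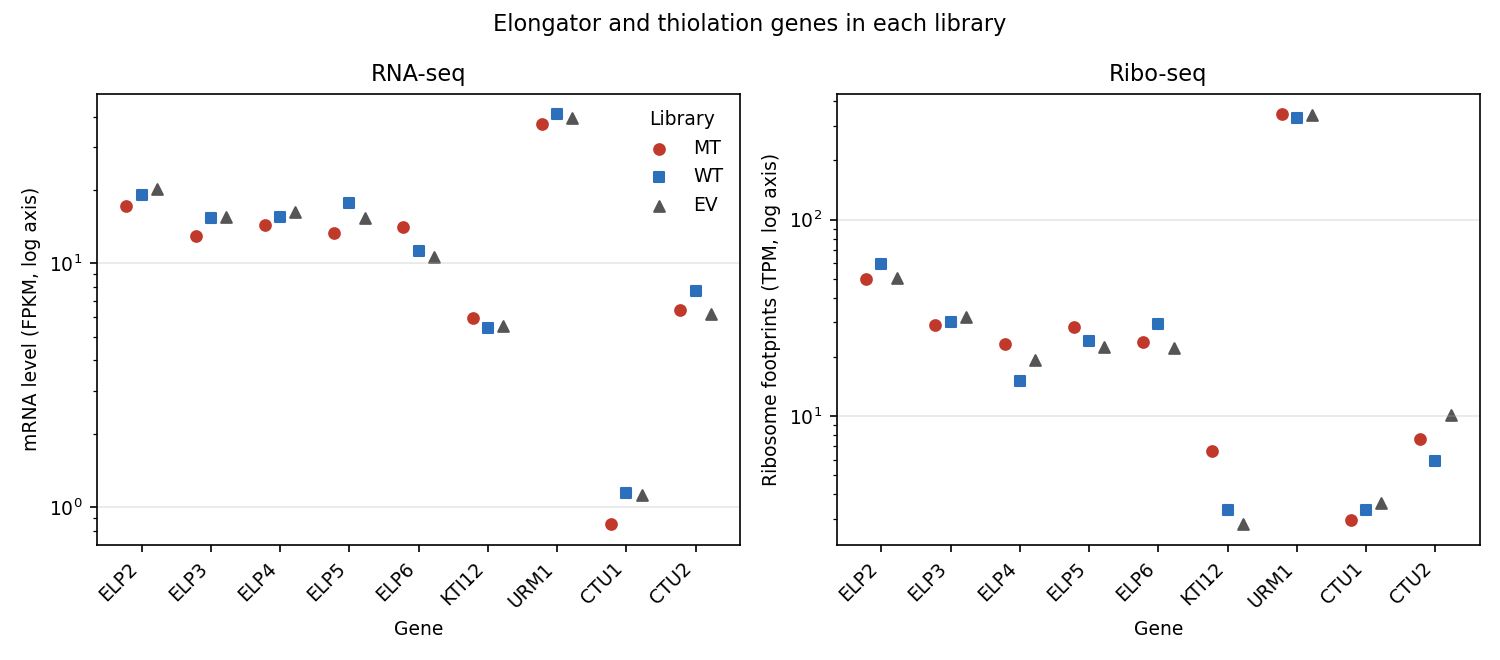
Level of each gene in each library, as FPKM in RNA-seq (left) and TPM in Ribo-seq (right), on log axes, with 1 point per library and no error bars since no replicates exist. URM1 stands at the top and CTU1 or KTI12 at the bottom in every library, and the 3 points of KTI12 lie farthest apart in Ribo-seq.

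The order of the members was largely shared by the libraries. URM1 led in all 6, followed by ELP2, which in WT mRNA was only 1.08 times ELP5. ELP3, ELP4, ELP5 and ELP6 came next with mRNA values between 10.6 and 17.6 FPKM, and their order differed between the libraries. In mRNA, successive values of ELP3, ELP4 and ELP5 lay at most 1.14 times apart, less than single genes of that level differ between libraries, so they were not separated. ELP6 mRNA stood apart below them in WT and EV, by 1.37 times in WT and 1.45 times in EV, and between ELP4 and ELP5 in MT. CTU2 and KTI12 were lower, and CTU1 was lowest in mRNA. Within RNA-seq the top member was 43.9 times the bottom member in MT, 35.6 times in WT and 35.1 times in EV.

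A difference is given below as log2 of the ratio after adding 1 to both values, and a gene passes the rule of size at 2-fold. As a gauge of how far single genes lie apart between a pair of libraries, the middle 95% of the differences of all genes in the same class of mean level (1 to 10, 10 to 100, and 100 units or more) was taken. It mixes real differences with error and is not a test. Over the 81 differences of the 9 members in 9 comparisons, 78 lay inside that range and 1 above it. The other 2, both of CTU1, had mean mRNA levels under 1 FPKM and were not placed.

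In mRNA 0 of 9 members passed the rule in MT over EV, where 0.290% of 11016 genes did. The same held in WT over EV, with 0 of 9 members against 0.499% of 11032 genes, and in MT over WT, with 0 of 9 against 0.508% of 11013 genes. The median difference of the members was -0.17 in MT over EV, beside -0.01 over all genes. There 3 of 9 members were above 0, beside 48.7% of all genes. In WT over EV the median was 0.02 beside -0.01 over all genes, with 5 of 9 above 0, beside 48.9% of all genes. MT over WT gave a median of -0.13 beside 0.00 over all genes, with 2 of 9 above 0, beside 49.0% of all genes. MT held the lowest of the 3 mRNA values for 6 members, WT for 1 and EV for 2. The same was not counted over all genes, so the 6 of 9 members have no background and are a description only. MT over EV and WT over EV use the same EV libraries, and MT over WT is built from the same MT and WT libraries, so these values are not independent.

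ELP2 (ENSG00000134759.14, chromosome 18), a subunit built of WD40 repeats, had mRNA values of 17.3 FPKM in MT, 19.0 FPKM in WT and 20.2 FPKM in EV. In Ribo-seq it had 49.9 TPM in MT, 59.2 TPM in WT and 50.4 TPM in EV. MT was lowest in both assays, by a log2 difference from EV of -0.21 in mRNA and -0.02 in Ribo-seq. ELP3 (ENSG00000134014.18, chromosome 8), the radical SAM and acetyltransferase subunit, had 12.9 FPKM in MT, 15.4 FPKM in WT and 15.5 FPKM in EV. Its footprints stood at 29.0 TPM in MT, 29.98 TPM in WT and 31.9 TPM in EV. MT was again lowest in both assays, and all 3 Ribo-seq values lay within 1.10 times of each other. The ratio of ELP2 to ELP3 Ribo-seq TPM was 1.72 in MT, 1.97 in WT and 1.58 in EV.

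The accessory subunits differed more from each other across the libraries. ELP4 (ENSG00000109911.19, chromosome 11) stood at 14.3 FPKM in MT, 15.4 FPKM in WT and 16.3 FPKM in EV. Footprints of ELP4 stood at 23.4 TPM in MT, 15.1 TPM in WT and 19.4 TPM in EV. MT thus had the lowest mRNA and the highest footprints of the 3. The Ribo-seq difference was 0.26 in MT over EV, -0.34 in WT over EV and 0.60 in MT over WT, where the middle 95% of genes at 10 to 100 TPM ran from -0.65 to 0.67.

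ELP5 (ENSG00000170291.16, chromosome 17) had 13.4 FPKM in MT, 17.6 FPKM in WT and 15.3 FPKM in EV. For footprints the values were 28.4 TPM in MT, 24.1 TPM in WT and 22.5 TPM in EV. Here too MT was lowest in mRNA and highest in footprints. The mRNA difference of MT over WT was -0.38, just inside the range of -0.39 to 0.37 for genes at 10 to 100 FPKM.

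ELP6 (ENSG00000163832.16, chromosome 3) went the other way, with 14.1 FPKM in MT, 11.2 FPKM in WT and 10.6 FPKM in EV. Ribo-seq gave 23.7 TPM in MT, 29.25 TPM in WT and 22.3 TPM in EV. MT had the highest mRNA, by 0.38 over EV, and this was the single member difference outside its range (-0.35 to 0.31). Over EV, ELP6 mRNA was 1.33 times as high in MT, against 1.06 times in WT, and the Ribo-seq ratios were 1.06 in MT and 1.31 in WT.

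The 3 accessory subunits form the ring in equal numbers, and their levels can be set side by side. In Ribo-seq the highest was 1.22 times the lowest in MT, 1.94 times in WT and 1.16 times in EV, with ELP4 lowest in all 3 libraries. In mRNA the highest was 1.07 times the lowest in MT, 1.57 times in WT and 1.53 times in EV. The 3 subunits were thus closest in mRNA in MT and farthest apart in footprints in WT. Which length the authors divided footprints by is not given, so a fixed factor between genes may come from it, but not a difference between libraries.

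KTI12 (ENSG00000198841.4, chromosome 1), an ATPase that associates with Elongator, showed the widest spread of footprints. Its Ribo-seq values were 6.63 TPM in MT, 3.34 TPM in WT and 2.81 TPM in EV, so MT stood apart from the other two. Its mRNA was 5.95 FPKM in MT, 5.43 FPKM in WT and 5.56 FPKM in EV. The Ribo-seq difference was 1.0 in MT over EV, 0.19 in WT over EV and 0.82 in MT over WT. KTI12 was the 1 of 9 members past the 2-fold rule in MT over EV, right at its edge, where 2.83% of 10737 genes passed it and 1.70% passed it upward. The value also lay inside the range of genes at 1 to 10 TPM (-0.92 to 1.02). Genes above 0 in a single Ribo-seq library had medians of 0.118 TPM in MT, 0.148 TPM in WT and 0.123 TPM in EV. In the RefSeq annotation KTI12 lies wholly within TXNDC12 on the same strand. TXNDC12 stood at 175 TPM in MT, 190.3 TPM in WT and 182 TPM in EV, lowest in MT, and the sources used here do not give how reads were assigned between both genes.

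The promoter windows of KTI12 and ELP6 are shown because these 2 members had the largest differences from EV, KTI12 in footprints and ELP6 in mRNA. Each runs from 250 bases before to 50 after an annotated start, 5′ to 3′ on the minus strand, from RefSeq in build GRCh38.p14 (KTI12 at chr1:52033761-52034060, ELP6 at chr3:47513663-47513962). Capitals mark matches on either strand to CCGGAAG, the core bound by ETS factors, to GCGCATG, a half-site of the NRF1 motif, and to CCAAT.
KTI12: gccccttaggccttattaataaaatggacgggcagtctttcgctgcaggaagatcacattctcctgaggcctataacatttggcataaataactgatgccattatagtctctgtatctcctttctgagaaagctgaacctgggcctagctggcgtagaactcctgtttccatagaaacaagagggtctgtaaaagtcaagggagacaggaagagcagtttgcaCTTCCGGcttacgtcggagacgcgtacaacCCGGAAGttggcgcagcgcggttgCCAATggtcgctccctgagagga
ELP6: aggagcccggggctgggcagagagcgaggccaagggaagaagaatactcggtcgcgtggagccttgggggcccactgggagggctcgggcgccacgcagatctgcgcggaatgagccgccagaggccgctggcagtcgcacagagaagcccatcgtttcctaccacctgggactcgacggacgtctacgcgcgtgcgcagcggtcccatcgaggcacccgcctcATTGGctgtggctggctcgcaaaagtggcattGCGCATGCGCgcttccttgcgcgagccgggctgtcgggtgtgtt
KTI12 had 2 matches to the ETS core and 1 to CCAAT, and ELP6 had 2 overlapping matches to the NRF1 half-site, which together form its palindrome, and 1 to CCAAT. ELP6 has 3 annotated windows, of which the outermost is printed. Windows of 7 members, all but ELP3 and URM1, were searched, 11 in all, some of which overlap. The ETS core was in 5 of the 11 windows (of KTI12, ELP6, ELP5 and CTU1), CCAAT in 6 (of KTI12, ELP4, ELP5 and ELP6), the NRF1 half-site in 1 (of ELP6) and TATAAA in 0. Overlapping ELP6 windows hold the same ETS core and the same CCAAT site, so these sites were counted more than once. The ETS core was in 10.3% of all 35116 promoter windows of RefSeq, CCAAT in 34.6%, the NRF1 half-site in 4.43% and TATAAA in 11.5%. No binding was measured, and a match of letters is a description only.

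URM1 (ENSG00000167118.11, chromosome 9) was the most abundant member and the steadiest. Its mRNA was 37.4 FPKM in MT, 41.0 FPKM in WT and 39.3 FPKM in EV. Its Ribo-seq values were 344 TPM in MT, 329 TPM in WT and 339 TPM in EV, all within 1.05 times of each other. The Ribo-seq difference was 0.02 in MT over EV and -0.04 in WT over EV, in a class (100 TPM or more) whose middle 95% spanned -0.32 to 0.33 and -0.46 to 0.47 in those comparisons. The value of URM1 was 6.90 times that of ELP2 in MT, 5.56 times in WT and 6.72 times in EV.

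CTU1 (ENSG00000142544.7, chromosome 19), the catalytic thiolase subunit, had the lowest mRNA of the members. It stood at 0.852 FPKM in MT, 1.15 FPKM in WT and 1.12 FPKM in EV, and its Ribo-seq values were 2.97 TPM in MT, 3.32 TPM in WT and 3.62 TPM in EV. MT was lowest in both assays, by -0.22 from EV in Ribo-seq, within the spread of genes at 1 to 10 TPM.

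CTU2 (ENSG00000174177.13, chromosome 16), its partner subunit, had mRNA values of 6.45 FPKM in MT, 7.68 FPKM in WT and 6.22 FPKM in EV. CTU2 footprints were 7.65 TPM in MT, 5.90 TPM in WT and 10.1 TPM in EV. WT therefore held the highest mRNA and the lowest footprints. The Ribo-seq difference from EV was -0.69 in WT and -0.37 in MT, inside the ranges for genes at 1 to 10 TPM (-1.02 to 1.04 and -0.92 to 1.02). The ratio of CTU2 to CTU1 Ribo-seq TPM was 2.58 in MT, 1.78 in WT and 2.80 in EV. CTU2 overlaps PIEZO1 on the other strand in the annotation, and PIEZO1 Ribo-seq values had the same order, with 10.0 TPM in MT, 7.71 TPM in WT and 13.1 TPM in EV. PIEZO1 mRNA did not share the order of CTU2 mRNA, at 44.1 FPKM in MT, 41.9 FPKM in WT and 40.5 FPKM in EV. The sources used here do not say whether counting used the strand, and the part of shared reads was not tested.

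Other members overlap opposite-strand genes too. ELP5 overlaps CTDNEP1, with 21.5 TPM in MT, 16.6 TPM in WT and 16.8 TPM in EV, and CLDN7, listed at 0 in all 3 Ribo-seq libraries. ELP4 overlaps PAX6, with 3.15 TPM in MT, 2.65 TPM in WT and 4.42 TPM in EV. For CTDNEP1 as for ELP5, MT had the highest footprint value, whereas PAX6 footprints were highest in EV and those of ELP4 in MT.

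**Figure D2:**
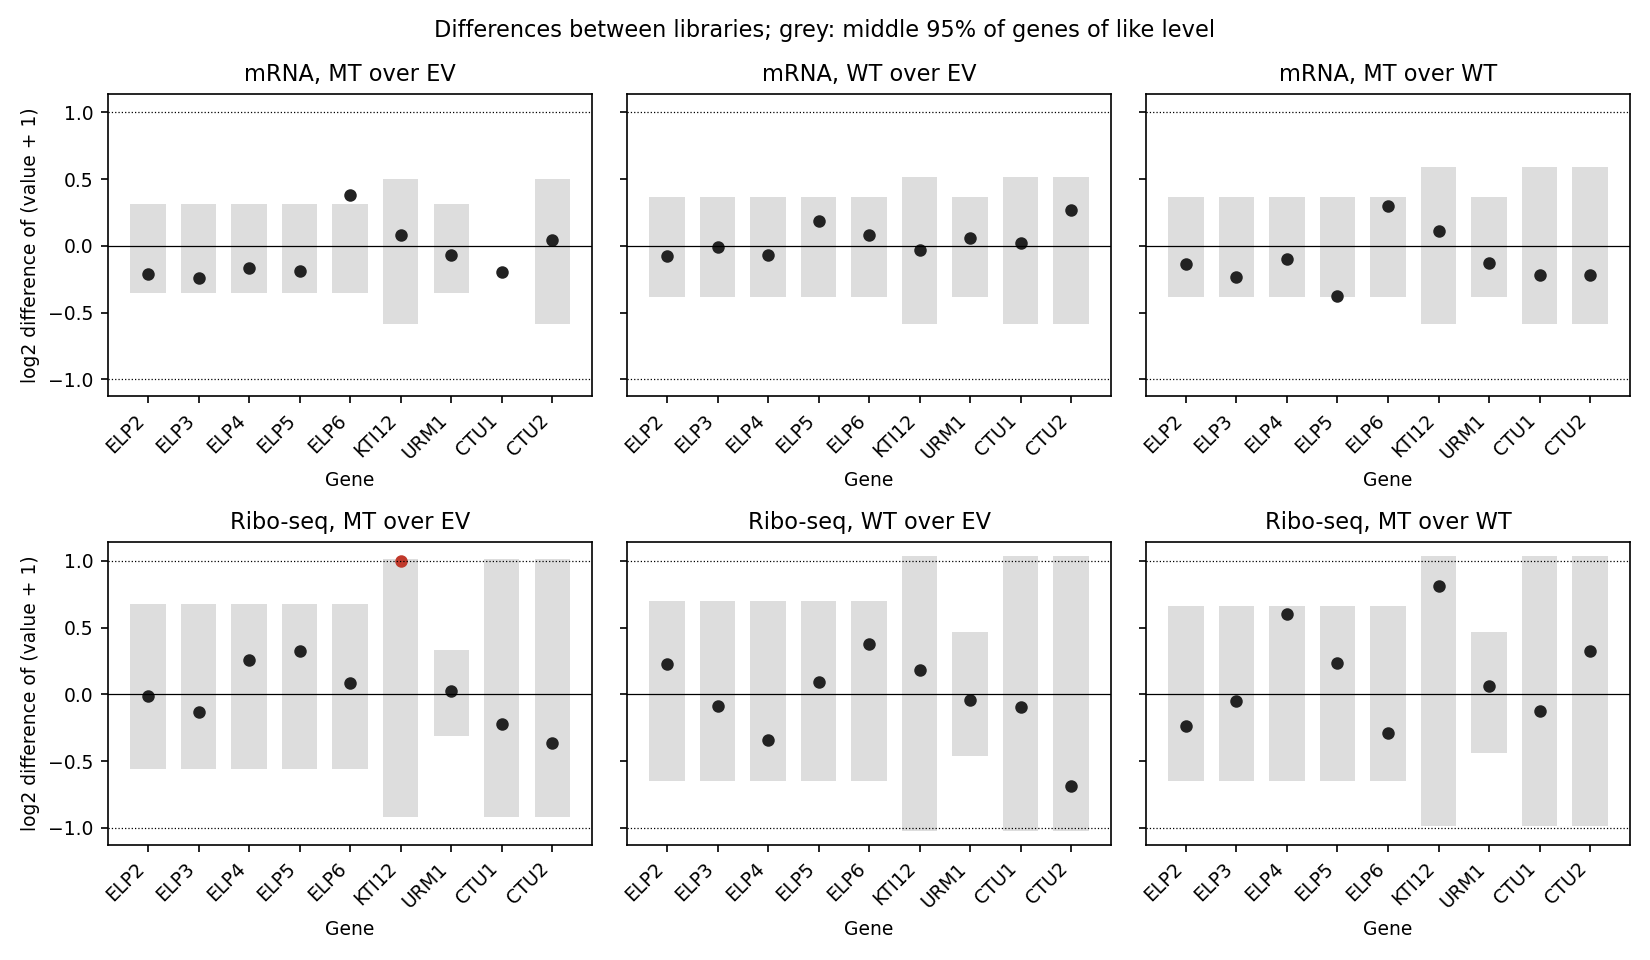
Log2 difference of (value + 1) for each gene in the 3 comparisons, for mRNA in the upper row and Ribo-seq in the lower row. Grey bars are the middle 95% of genes in the same class of level, missing where the mean level was under 1 unit, dotted lines mark 2-fold, and red marks a gene past it. KTI12 at 1.0 in Ribo-seq of MT over EV is the red point, and ELP6 at 0.38 in mRNA of MT over EV is the point above its bar.

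Taking the Ribo-seq comparisons as a whole, the median difference of the members was 0.02 in MT over EV (0.01 over all genes), -0.04 in WT over EV (0.03 over all genes) and 0.07 in MT over WT (-0.01 over all genes). In WT over EV 0 of 9 members passed the 2-fold rule, where 3.36% of genes did, and in MT over WT 0 of 9 did, where 3.19% of genes did. At a looser 1.5-fold, KTI12 passed in MT over EV (10.8% of all genes did), CTU2 in WT over EV (12.1% of genes), and ELP4 and KTI12 in MT over WT (12.5% of genes). A share of 1 in 9 is close to those backgrounds, and 2 in 9 is 1 gene more. The mRNA and Ribo-seq differences had the same sign for 5 of 9 members in MT over EV, for 4 in WT over EV and for 4 in MT over WT. The share of all genes with the same sign was not counted, so these counts describe the members only.

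The ratio of Ribo-seq TPM to RNA-seq FPKM gauges footprints per mRNA, and since both scales differ it is set beside that of other genes. Which length footprints were divided by is not given, so a gene's place among genes may hold a fixed factor from it. A difference of 1 gene between libraries would not. Most members lay above the median gene. Of the 9 ratios, 9 were above it in MT (median 1.11), 6 in WT (median 1.13) and 8 in EV (median 1.10). URM1 stood at 9.20 in MT (percentile 97.9), 8.03 in WT (97.4) and 8.63 in EV (98.0) among the genes at 1 unit or more in both assays. CTU1 had 3.49 in MT, 2.89 in WT and 3.23 in EV, on low values. ELP2 had 2.89 in MT, 3.11 in WT and 2.502 in EV, and ELP3 had 2.24 in MT, 1.95 in WT and 2.06 in EV.

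KTI12 lay lower, at 1.12 in MT (percentile 50.3), 0.614 in WT (26.1) and 0.506 in EV (20.8). For CTU2 the ratio was 1.19 in MT (percentile 53.2), 0.768 in WT (34.0) and 1.63 in EV (66.2). Among the accessory subunits ELP4 had 1.63 in MT, 0.976 in WT and 1.19 in EV. ELP5 had 2.13 in MT, 1.36 in WT and 1.47 in EV. MT was highest for both, whereas for ELP6 it was lowest, with 1.68 in MT, 2.60 in WT and 2.10 in EV.

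**Figure D3:**
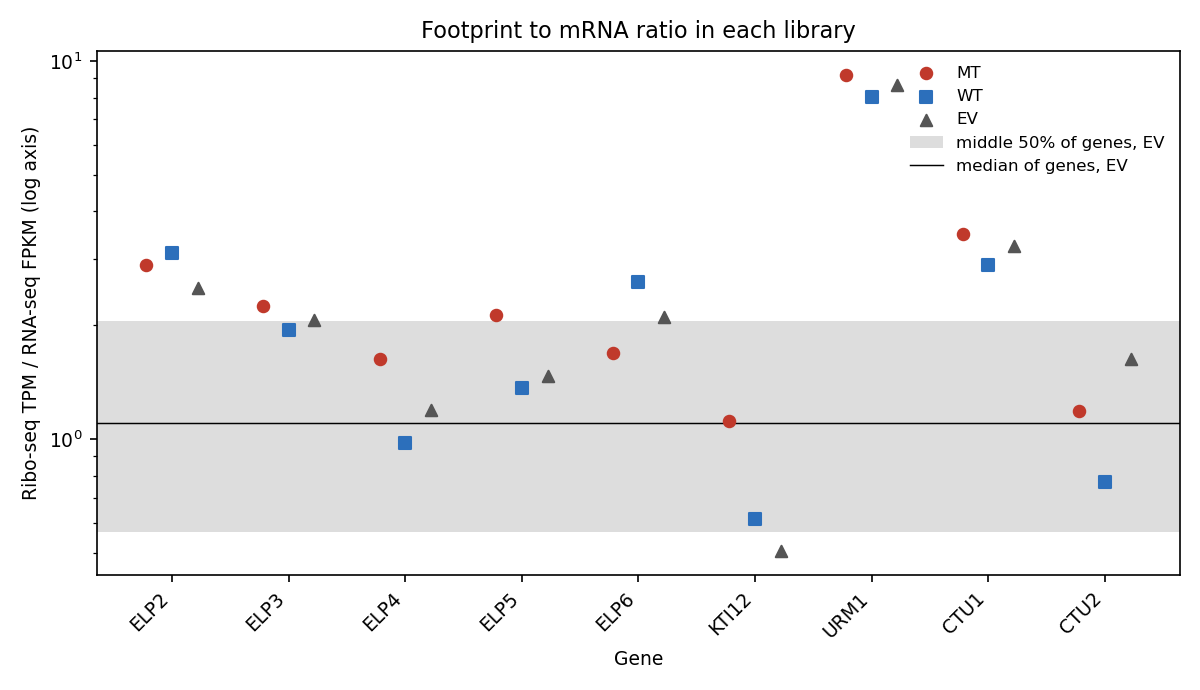
Ratio of Ribo-seq TPM to RNA-seq FPKM for each gene in each library, on a log axis, with the median (line) and the middle 50% (grey) of all genes at 1 unit or more in both assays in EV. URM1 lies far above the grey band in all 3 libraries, and KTI12 lies at the median in MT and below the band in EV.

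As differences on the log2 scale, the ratio of 0 of 9 members passed 2-fold in MT over EV (3.51% of 10331 genes did), in WT over EV (4.21% of 10335) or in MT over WT (4.82% of 10352). CTU2 came nearest in WT over EV, at -0.96, and KTI12 in MT over EV, at 0.92. At 1.5-fold KTI12 passed in MT over EV (13.7% of genes), CTU2 in WT over EV (16.9% of genes), and ELP4, ELP5, ELP6 and KTI12 in MT over WT (17.7% of genes). In MT over WT the differences were 0.70 for ELP4, 0.61 for ELP5, -0.59 for ELP6 and 0.70 for KTI12, all inside the range of genes of like level. The median over members there was 0.19, beside -0.01 over all genes, with 7 of 9 above 0, beside 49.2% of all genes.

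Other genes linked to the pathway, with 3 mRNAs described as depending on it, were taken from a list of 15. In mRNA, in Ribo-seq and in their ratio, 0 of its measured members passed 2-fold in any of the 3 comparisons. Over all genes, between 0.290% and 4.82% passed it in those comparisons. Of the sulfur and electron suppliers, the cysteine desulfurase gene NFS1 stood at 19.6 TPM in MT, 20.5 TPM in WT and 20.0 TPM in EV in Ribo-seq. MOCS3, which activates URM1, had 9.45 TPM in MT, 9.96 TPM in WT and 11.6 TPM in EV. DPH3, an electron donor of Elongator in yeast that also serves diphthamide synthesis, had 69.4 TPM in MT, 61.8 TPM in WT and 78.6 TPM in EV, and LYRM4, the partner of NFS1, had 54.8 TPM in MT, 53.6 TPM in WT and 61.6 TPM in EV. MOCS3, DPH3 and LYRM4 were thus each highest in EV, with Ribo-seq differences of -0.17 to -0.27 in MT and -0.20 to -0.34 in WT. All lay inside the ranges of genes at 10 to 100 TPM (-0.56 to 0.68 in MT and -0.65 to 0.70 in WT). In mRNA, MOCS3 and DPH3 were lowest in EV, at 2.01 FPKM and 5.87 FPKM, and LYRM4 was lowest in WT.

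The methyltransferase ALKBH8, which finishes the side chain, had 3.91 TPM in MT, 3.85 TPM in WT and 4.29 TPM in EV. TRMT112, its activating subunit and that of other methyltransferases, had 883 TPM in MT, 804 TPM in WT and 768 TPM in EV. Like URM1 (percentiles of 97.4 or more), TRMT112 and DPH3 had ratios of footprints to mRNA among the highest of all genes, at percentiles of 97.6 or more in every library. The length that footprints were divided by is not given, and its part in these ranks was not tested. The mitochondrial wobble uridine enzymes TRMU, MTO1 and GTPBP3 stood between 7.20 and 19.5 TPM, and their Ribo-seq differences from EV lay between -0.30 and 0.23.

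Synthetases that charge the thiolated tRNAs were KARS1, QARS1 and EPRS1. EPRS1 mRNA stood at 110.3 FPKM in MT, 135 FPKM in WT and 145 FPKM in EV, a difference of -0.39 in MT over EV that lay below the range of genes at 100 FPKM or more (-0.26 to 0.25). Its footprints were 72.0 TPM in MT, 75.4 TPM in WT and 70.8 TPM in EV. KARS1 footprints were 102.5 TPM in MT, 106 TPM in WT and 110.1 TPM in EV, and those of QARS1 59.8 TPM in MT, 62.3 TPM in WT and 68.8 TPM in EV. Both were highest in EV, with differences inside the range of genes of like level.

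DEK, LEF1 and HIF1A are mRNAs described in other tumour cells as needing these enzymes for their translation. DEK, a chromatin protein gene, had 123 TPM in MT, 125 TPM in WT and 112 TPM in EV, and an mRNA level of 224 FPKM in MT, 243 FPKM in WT and 242 FPKM in EV. Its footprint to mRNA ratio was 0.551 in MT, 0.514 in WT and 0.463 in EV, a log2 difference over EV of 0.25 in MT and 0.15 in WT. HIF1A had 2.04 TPM in MT, 0.967 TPM in WT and 1.52 TPM in EV. Before adding 1, its MT value was 2.10 times that of WT, on low values. After adding 1, the HIF1A differences lay inside the range of genes of like level. LEF1 was under 1 TPM in all 3 Ribo-seq libraries.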

How the data were processed

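The 9 members and all gene lists were chosen with earlier results of these data known. Per the labels' protocols, TRIzol was used to extract RNA, footprints were made with RNase I after cycloheximide treatment, and libraries were made with NEBNext kits. The deposited table had 20307 rows and no unit in its header. Its RNA-seq columns were read as FPKM, since the deposited values sum to 459938 to 469859, and its Ribo-seq columns as TPM by the authors, since each sums to 1000000. The sources used here do not give the aligner, counting method or annotation, and the submitters' processing notes name hg 18. Read totals are unknown, so no interval for counting error is given. Rows without a gene name (605, holding 0.15% to 0.16% of the RNA-seq values and between 0.51% and 0.56% in Ribo-seq) and 7 symbols with differing rows were left out.

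Values were compared as log2(value + 1), which understates changes of low genes, for genes at 1 unit or more in a library compared (in each assay for the ratio). The ratio difference is the Ribo-seq minus the RNA-seq log2 difference. Genes named were the members, PHYHD1, 15 genes linked to the pathway, cell type markers and overlapping genes. Python 3.11.15 with pandas 2.3.3 was used, and the calculation was tested on simulated data.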

Additional observations from a re-analysis of the deposited data

How the results depend on the processing

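A pseudocount of 0.1, no minimum level, a minimum of 10 units and median centring were tried for all 9 comparisons, and a 1.5-fold rule for counts. Under these, 36 of 36 medians over members moved by less than the spread of all genes (robust SD), as did all 299 differences of single members. Most of the 299 could hardly move by design. A minimum only selects genes and leaves each difference as it was, and centring shifts all members by the same small amount. The pseudocount alone could act differently on single members, and 81 of 81 differences stayed within that spread under it. Of the counts of members past the rule, 36 of 45 stayed the same. KTI12 passed the rule in Ribo-seq of MT over EV at a log2 difference of 1.0, and the count of 1 became 0 at a minimum of 10 units, which leaves KTI12 out, and 0 with median centring (a shift of 0.01). For the ratio, a pseudocount of 0.1 gave 1 member in MT over EV (KTI12) and 1 in WT over EV (CTU2), while the share of all genes past the rule became 7.02% and 7.76%. The 1.5-fold rule gave 1 member in Ribo-seq of WT over EV, 2 in MT over WT, and for the ratio 1 in MT over EV, 1 in WT over EV and 4 in MT over WT. No paired analysis was possible because each label has 1 library per assay. Read totals are unknown, so what depth limits cannot be stated per gene. For genes at 1 to 10 TPM, such as KTI12 and CTU1, the middle 95% of differences reached about 2-fold between libraries, which mixes real differences with error.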
